A study of Mus musculus with 2 samples.

Results

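The genes described here are 36 regulators of the cell cycle: cyclins, cyclin-dependent kinases (CDKs), CDK inhibitors, the kinases and phosphatases that switch CDKs off and on, checkpoint kinases, and the factors that transcribe or degrade cell cycle proteins. They were taken by name from a table of 19294 genes, all 36 were listed, and all 36 reached 10 counts in one library or both, the minimum for a gene to be tested, which 17235 genes met. The data are mRNA-seq of mouse intestinal organoids (mIOs), grown from jejunal crypts with EGF, Noggin and R-spondin in the medium. All mIOs carried the Lgr5-EGFP-IRES-creERT2 allele, in which EGFP reports expression from the Lgr5 locus, the gene of crypt base stem cells. There was 1 control library and 1 library of mIOs given dextran sulfate sodium (DSS), a polymer used to model colitis, for 4 days, and both are labelled day 4. The age of the mice and the DSS dose used for sequencing are not given in the sources used here.

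Each condition is 1 library, so no difference has a replicate check in these data and no test between conditions was made. Values are CPM, the counts of a gene per 1000000 counts of its library, after TMM scaling, a method that sets the libraries to a common scale from the bulk of their genes. A log2 ratio is DSS over control, and its exact Clopper-Pearson 95% interval covers counting error only, not the variation between cultures. Total counts were 65493032 for control and 59746968 for DSS. The cell type is labelled as intestinal stem cells, but markers of mature cell types were present in both libraries. The 4 stem cell markers, Lgr5, Olfm4, Ascl2 and Smoc2, were all lower with DSS and summed to 702 CPM in control and 124 CPM in DSS-treated mIOs. Olfm4 had a log2 ratio of -9.59, Ascl2 of -4.31, Lgr5 of -3.78 and Smoc2 of -1.25. Smoc2 alone gave 104 CPM of the DSS sum. The 4 markers of enterocytes summed to 1219 and 14335 CPM, the 3 of goblet cells to 222 and 2384 CPM, and the 3 of enteroendocrine cells to 686 and 3451 CPM. The 3 Paneth cell markers summed to 489 and 143 CPM and the 3 tuft cell markers to 6.92 and 2.54 CPM. The 4 markers listed for epithelium summed to 4014 and 6049 CPM. Their log2 ratios were -0.03 for Cdh1, 0.03 for Epcam, 0.84 for Krt8 and 1.25 for Vil1. By RT-PCR, the study reported lower Lgr5 and Lyz with DSS, but similar levels of Vil1, Muc2 and Chga. In these libraries the goblet cell marker Muc2 was at 4.98 and the enteroendocrine marker Chga at 2.60, so the assays differed for these genes. Of 5 immune, 5 mesenchymal and 3 endothelial markers, 3, 2 and 1 were listed, none of them above 1.91 CPM in either library, and Ptprc, Cd3e, Col1a2, Col3a1, Dcn, Cdh5 and Kdr were not listed. No listed gene had 0 counts, so a gene not listed may still have had counts in 1 library. The part of these marker differences in the results below was not tested, and in bulk RNA fewer cycling cells and less RNA per cycling cell cannot be told apart.

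A cell enters the cycle when D-type cyclins with CDK4 or CDK6 begin to inactivate the retinoblastoma protein. Cyclin E with CDK2 starts DNA replication, cyclin A acts through S and G2 phase, and cyclin B with CDK1 drives mitosis. In the intestine, division takes place in the crypt, in stem cells and the transit-amplifying cells derived from them, and cells that move onto the villus leave the cycle as they mature.

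In DSS-treated mIOs, most of the 36 genes were lower, and the median difference was larger for the genes of S phase and mitosis than for those of G1. With 2-fold as the limit, 26 of the 36 genes were lower (a log2 ratio of -1 or less), against 20.2% of all tested genes, and 1 was higher (1 or more), against 19.3% of all tested genes. With 4-fold as the limit, 21 genes were lower, against 6.54% of all tested genes, and none was higher, against 7.87%. The median log2 ratio of the 36 genes was -2.16, and that of all tested genes was -0.06. The remaining 9 genes lay within 2-fold. Of all tested genes past 2-fold, 48.9% were higher in the DSS library with TMM scaling and 37.1% with total counts, a scaling that lowers each log2 ratio by 0.26. Exons of Ccna2, Ccnd1, Ccnd2, Ccnd3, Ccne2, Cdk4, Cdk6, Cdkn1c, Cdc25b, Pkmyt1 and Fzr1 overlap a gene on the other strand, and those of Ccnf and Foxm1 overlap genes on the same strand, so that their values may hold reads of a neighbour. Together, the 36 genes took 2219 CPM in control and 757 CPM in DSS-treated mIOs.

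**Figure D1:**
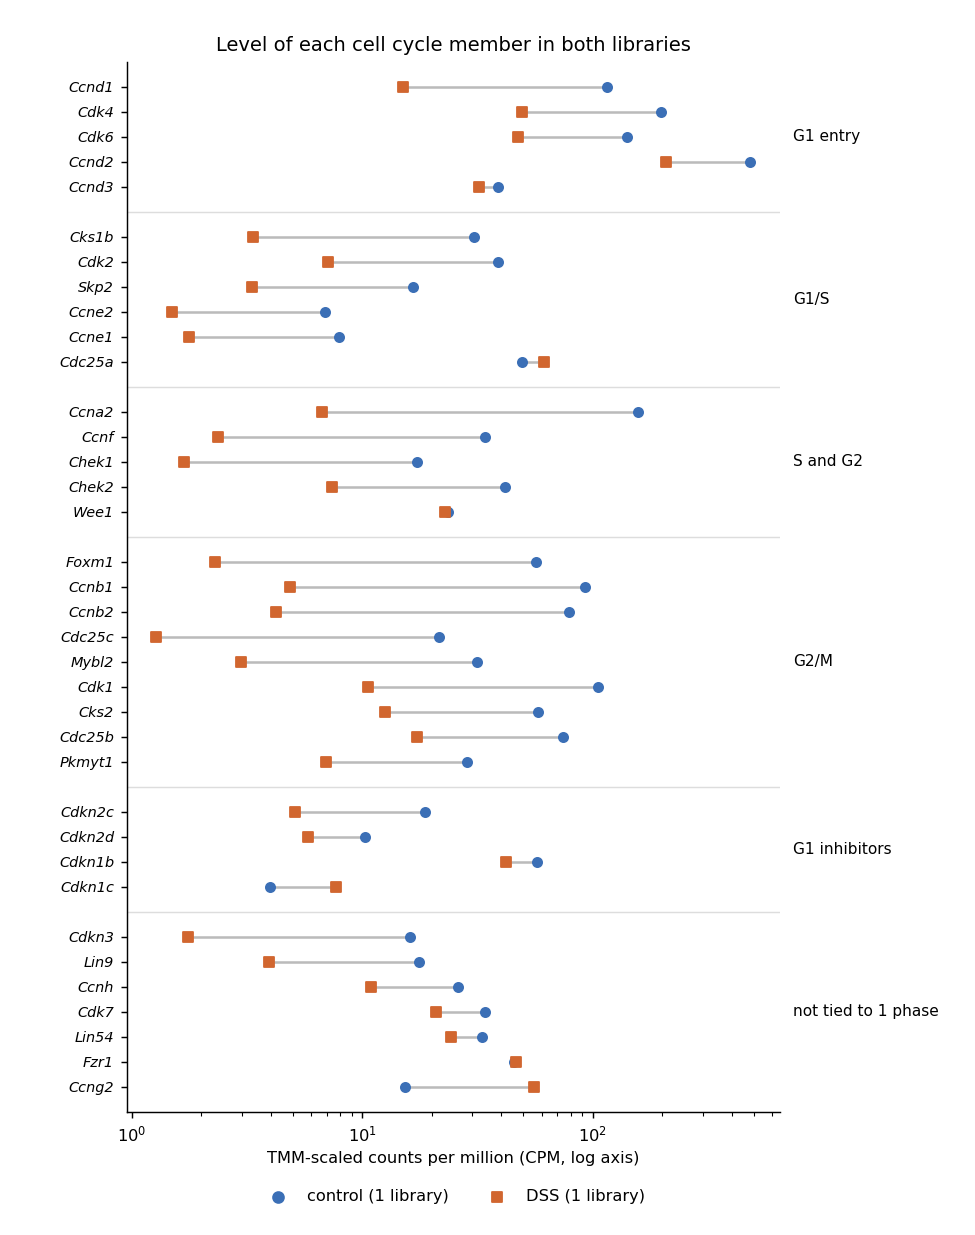
Level of each of the 36 genes in CPM (TMM-scaled) on a log axis, with circles for the control library and squares for the DSS library, grouped by the phase in which the product acts. Most squares lie left of their circles, while Ccng2, Cdkn1c and Cdc25a lie right of them and Wee1 and Fzr1 nearly coincide.

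**Figure D2:**
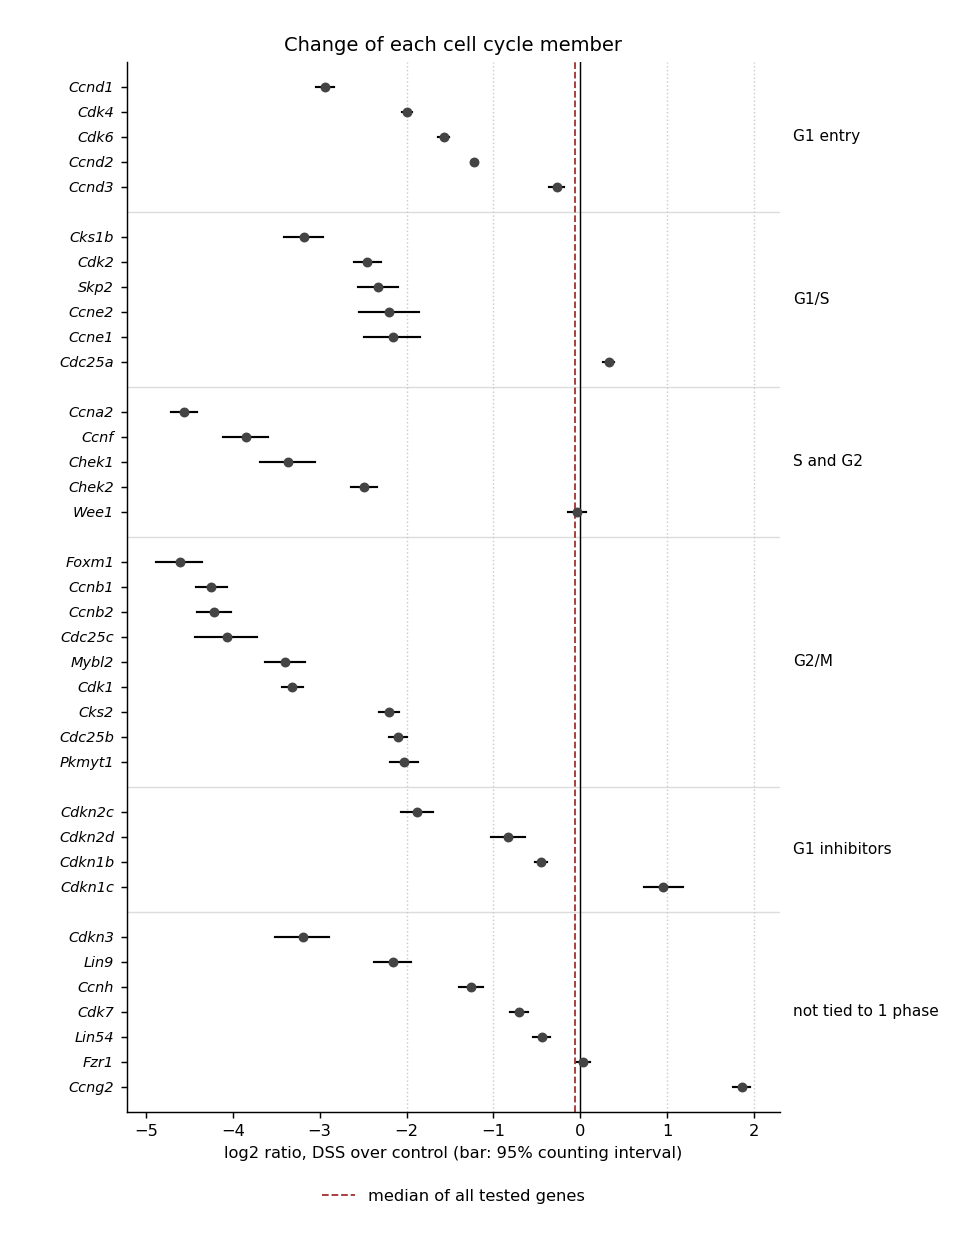
Log2 ratio of each gene, DSS over control, with its 95% counting interval, in the same groups, dotted lines at 2-fold and 4-fold and a dashed line at the median of all tested genes, -0.06. All 9 G2/M genes lie at or below -2.03, and Ccng2 at 1.86 is the only gene past 2-fold on the right.

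The genes of mitotic entry had the lowest median of the groups, though that of the S and G2 genes, at -3.37, was nearly the same. All 9 G2/M genes were lower by more than 4-fold, against 6.54% of all tested genes, with a median log2 ratio of -3.40. Pkmyt1, however, was just past that limit and at -1.94 with upper quartile factors. Foxm1 (NCBI gene 14235), the forkhead factor that transcribes late cell cycle genes, had 4037 control counts and 126 with DSS, or 56.4 and 2.30 CPM. Its log2 ratio of -4.61 (interval -4.88 to -4.36) was the lowest of the 36, a level 24.5-fold lower, and only 0.284% of tested genes had a lower ratio.

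The B-type cyclins, the activating partners of CDK1 in mitosis, moved side by side. Ccnb1 was at 92.1 CPM in control and 4.85 CPM in DSS-treated mIOs, with a log2 ratio of -4.25 (interval -4.43 to -4.07). Ccnb2 was at 78.8 and 4.24 CPM, with a log2 ratio of -4.22 (interval -4.41 to -4.03), so the ratios of the pair did not differ beyond counting error. Ccnb1 has a listed pseudogene, Ccnb1-ps, which went from 173 to 5 counts, and how reads shared by such copies were counted is not given in the sources used here. Cdk1 itself, the mitotic kinase, went from 105 to 10.6 CPM, a log2 ratio of -3.31 (interval -3.44 to -3.19), a smaller difference than those of its cyclins.

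The CDC25 phosphatases remove the inhibitory phosphates from CDKs, and Cdc25c and Cdc25b are those that act at mitosis. Cdc25c had 1542 control counts and 70 with DSS, the lowest DSS count of the 36 genes, with a log2 ratio of -4.07 (interval -4.44 to -3.73). Cdc25b had 5313 and 947 counts and a log2 ratio of -2.10. Mybl2, which encodes B-MYB, the partner of the MuvB complex in activating mitotic genes, was at -3.40 (interval -3.63 to -3.17). Cks2, a small CDK-binding subunit, was at -2.20, and Pkmyt1, the membrane-bound kinase that inhibits CDK1, at -2.03 (interval -2.19 to -1.87). The group thus held an inhibitor of CDK1 among genes that activate it, and its ratios spread from -4.61 to -2.03.

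Many mitotic genes carry a cell cycle homology region (CHR), bound by MuvB with B-MYB, and CCAAT boxes, bound by NF-Y, just upstream of their start. The 250 bases before the start of 3 G2/M genes that hold both motifs are shown, from RefSeq on build GRCm38.p6, 5′ to 3′ along the gene, with matches to CHR, CCAAT box and E2F motifs in capitals. Ccnb2 lies on the minus strand (chr9:70421555-70421804), Cdk1 on the minus strand (chr10:69352913-69353162) and Cdc25b on the plus strand (chr2:131186698-131186947).
Ccnb2: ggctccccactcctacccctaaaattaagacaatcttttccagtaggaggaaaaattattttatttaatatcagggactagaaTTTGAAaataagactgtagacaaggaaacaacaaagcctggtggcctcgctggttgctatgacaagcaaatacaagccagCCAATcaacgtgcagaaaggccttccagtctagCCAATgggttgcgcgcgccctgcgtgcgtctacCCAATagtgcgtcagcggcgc
Cdk1: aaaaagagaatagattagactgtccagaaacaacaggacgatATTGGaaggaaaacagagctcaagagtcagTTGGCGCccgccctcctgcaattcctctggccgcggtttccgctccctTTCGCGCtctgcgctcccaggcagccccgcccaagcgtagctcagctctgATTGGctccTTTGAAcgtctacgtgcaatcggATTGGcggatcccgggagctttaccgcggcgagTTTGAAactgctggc
Cdc25b: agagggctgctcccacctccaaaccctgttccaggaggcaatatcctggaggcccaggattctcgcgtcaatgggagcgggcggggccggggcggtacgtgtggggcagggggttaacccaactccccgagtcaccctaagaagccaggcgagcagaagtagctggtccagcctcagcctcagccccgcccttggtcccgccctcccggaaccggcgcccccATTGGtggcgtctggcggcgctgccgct
In Ccnb2, the CCAAT boxes begin at positions -87, -54 and -21, counted from the start site, with a CHR match at -167 and another at 4, outside the printed stretch. In Cdk1, CHR matches begin at -71 and -15, each downstream of a CCAAT box, and E2F matches at -178 and -130. The CHR match of Cdc25b begins at 7, also outside the printed stretch.

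The genes of S and G2 phase were about as low as the mitotic genes, with a median log2 ratio of -3.37 and 1 exception. Ccna2, cyclin A2, which serves CDK2 in S phase and CDK1 later, was at 157 CPM in control and 6.66 CPM in DSS-treated mIOs. Its log2 ratio was -4.56 (interval -4.72 to -4.41). Ccnf, an F-box cyclin that marks proteins for degradation in G2, was at -3.85 (interval -4.12 to -3.59).

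Both checkpoint kinases were lower. Chek1, which acts when replication stalls, went from 17.3 to 1.68 CPM, a log2 ratio of -3.37 (interval -3.69 to -3.06). Chek2, which acts after double-strand breaks, went from 41.4 to 7.37 CPM, a log2 ratio of -2.49 (interval -2.64 to -2.34). The exception in this group was Wee1, the nuclear kinase that places the inhibitory phosphate on CDK1. Wee1 had 1678 and 1250 counts, or 23.4 and 22.9 CPM, and its log2 ratio of -0.04 had an interval from -0.14 to 0.07 that included 0.

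At the G1/S boundary, 5 of 6 genes were lower by more than 4-fold, against 6.54% of all tested genes, and the median log2 ratio was -2.26. The E-type cyclins, which activate CDK2, had similar counts and ratios. Ccne1 had 567 and 97 counts and a log2 ratio of -2.16 (interval -2.48 to -1.85), and Ccne2 had 492 and 82 counts and a log2 ratio of -2.20 (interval -2.55 to -1.86). The intervals of both included the 4-fold limit of -2. Cdk2 was at -2.45, from 38.9 to 7.11 CPM. Skp2, the F-box protein that targets the inhibitor p27 for degradation, was at -2.33, and Cks1b, its cofactor in that step, at -3.18 (interval -3.41 to -2.97).

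Cdc25a (NCBI gene 12530), the phosphatase that activates CDK2 and also CDK1, was apart from this group. It had 3517 control counts and 3370 with DSS, or 49.1 and 61.6 CPM. Its log2 ratio was 0.33 (interval 0.26 to 0.40), and with total counts it was 0.07. Its level thus differed little, while its relatives Cdc25b and Cdc25c were at 0.233 and 0.0594 of their control levels.

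The genes of G1 entry were lower by smaller and more uneven amounts, with a median log2 ratio of -1.57. Among D-type cyclins, which couple growth signals to the cycle, Ccnd1 had the lowest ratio, at 115 CPM in control and 15.0 CPM in DSS-treated mIOs, a log2 ratio of -2.94 (interval -3.04 to -2.83). Ccnd2 took the most reads of the 36 genes, at 482 and 207 CPM, with a log2 ratio of -1.22 (interval -1.25 to -1.19). Ccnd3 was at 38.8 and 32.2 CPM, with a log2 ratio of -0.27 (interval -0.36 to -0.18). The 3 intervals did not overlap, so the D-type cyclins differed among themselves beyond counting error.

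Of the kinases they activate, Cdk4 went from 196 to 49.4 CPM, a log2 ratio of -1.99 (interval -2.05 to -1.93), and Cdk6 from 141 to 47.5 CPM, a log2 ratio of -1.57 (interval -1.63 to -1.51). Per kilobase of annotated exon, Cdk4 had the highest control level of the 36 genes, at 95.7 CPM per kilobase, followed by Cks2 at 83.3 and Ccnd2 at 71.8. In the DSS library the order began with Ccnd2 at 30.8, Cdk4 at 24.0, Cks2 at 18.2, Ccng2 at 17.8 and Fzr1 at 15.2 CPM per kilobase. Ccng2 and Fzr1 had ranked 31 and 15 in the control. Ccna2, Ccnb1 and Ccnb2 went from ranks 5, 6 and 4 to ranks 26, 24 and 22.

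The inhibitors of G1 CDKs did not share a direction, and their median log2 ratio was -0.64. Cdkn1b encodes p27, which binds cyclin E with CDK2, and it was at 57.4 and 42.0 CPM, a log2 ratio of -0.45 (interval -0.52 to -0.38). Cdkn1c encodes its relative p57 and had 284 and 422 counts, or 3.97 and 7.72 CPM. Its log2 ratio of 0.96 (interval 0.74 to 1.18) lay just under 2-fold, and with upper quartile factors it was 1.05. Of the INK4 inhibitors, which bind CDK4 and CDK6, Cdkn2c was at -1.88 (interval -2.07 to -1.69) and Cdkn2d at -0.83 (interval -1.02 to -0.64). Cdkn2c was lower by more than 2-fold, as was Cdkn2d with total counts, at -1.08.

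The genes not tied to 1 phase held the gene with the highest ratio and spread from -3.20 to 1.86, with a median of -0.71. Ccng2 (NCBI gene 12452), an unconventional cyclin known to be high in cells that have left the cycle, had 1092 control counts and 3026 with DSS, or 15.3 and 55.3 CPM. Its log2 ratio of 1.86 (interval 1.76 to 1.96) corresponded to a level 3.63-fold higher and was higher than that of 91.0% of tested genes. In the 300 bases searched, Mybl2, Ccne1, Cdk4, Cdk6 and Cdk7, all lower with DSS, held no match to any of the motifs, as was the case for Ccng2. The 250 bases before the start of Ccng2, on the plus strand (chr5:93267323-93267572), are shown, with no letter in capitals.
Ccng2: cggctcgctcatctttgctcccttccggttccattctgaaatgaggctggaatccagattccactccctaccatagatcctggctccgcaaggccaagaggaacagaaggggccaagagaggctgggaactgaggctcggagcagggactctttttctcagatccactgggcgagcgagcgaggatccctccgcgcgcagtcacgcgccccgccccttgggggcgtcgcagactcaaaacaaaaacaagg

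Fzr1 encodes CDH1, the activator of the anaphase-promoting complex (APC/C) that keeps mitotic cyclins low in G1. It had 3241 and 2536 counts, or 45.3 and 46.4 CPM, and its log2 ratio of 0.03 had an interval from -0.04 to 0.11, while with total counts it was -0.22. Ccnh and Cdk7 form the CDK-activating kinase, which also serves transcription, and they were at -1.25 and -0.71. Of the MuvB core subunits, Lin9 was at -2.16 (interval -2.38 to -1.95), and Lin54, the subunit that contacts the CHR, at -0.44 (interval -0.54 to -0.35). Cdkn3, a phosphatase that dephosphorylates CDKs and is high in dividing cells, was at -3.20.

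**Figure D3:**
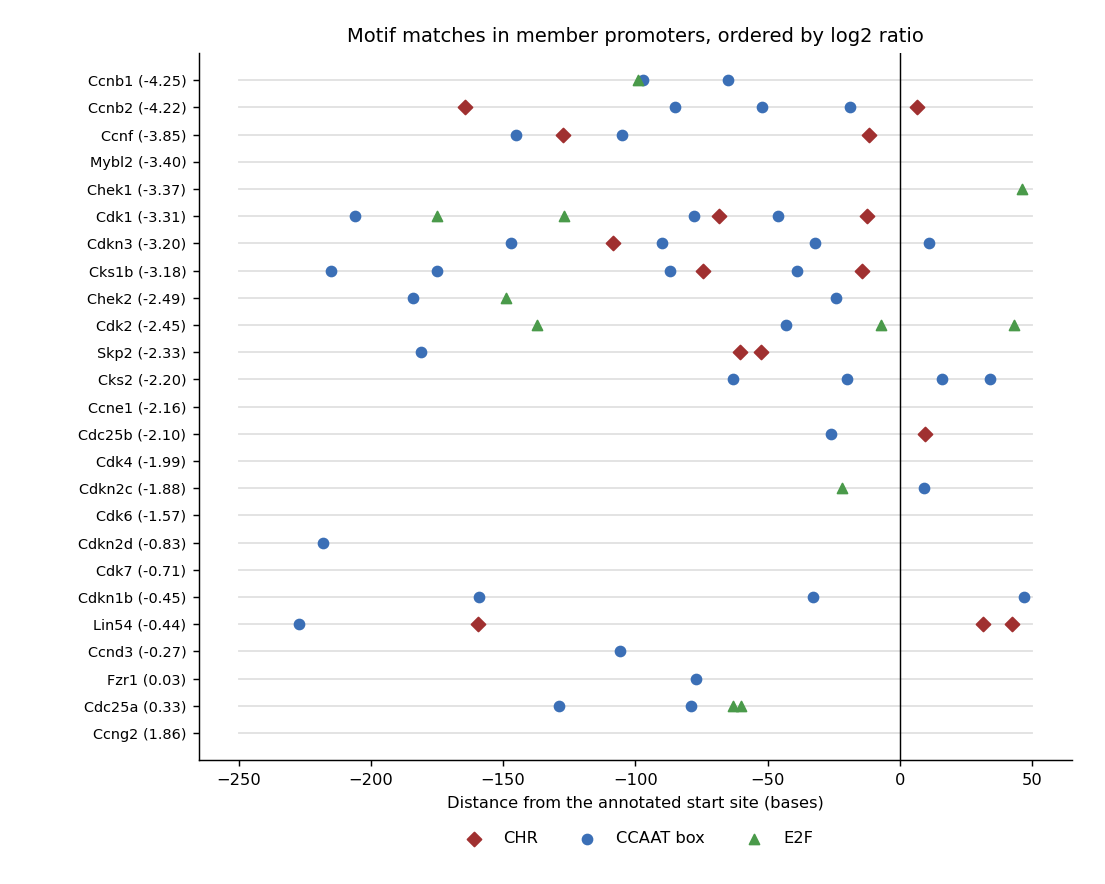
Matches to CHR (diamonds), CCAAT box (circles) and E2F (triangles) motifs by distance in bases from the annotated start site, for the 25 genes in the promoter table, ordered from the lowest log2 ratio at the top, with the ratio beside each name. Genes with more than 1 listed start share a line, and CHR matches lie mostly in the upper part, with Lin54 as the exception below.

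RefSeq promoters of 300 bases, 250 before and 50 after the start, were listed for 25 of the 36 genes. Motifs were searched on both strands. The CHR was spelled TTTGAA or TTCGAA, the CCAAT box by those letters, and E2F as TTCCCGC, with TTCGCGC, with TTGCCGC or with TTGGCGC as other forms. In Ccnb1 a CCAAT box overlapped an E2F match, and E2F matches overlapped each other in Cdc25a. A CHR match was found in 8 of the 25 genes (32.0%), against 21.7% of all 27025 genes with a listed promoter and 17.1% of those that were tested here. A CCAAT box was found in 18 genes (72.0%), against 41.1% and 42.9%, and an E2F match in 7 genes (28.0%), against 10.9% and 18.0%. All 8 genes with a CHR match also had a CCAAT box. The combination was thus found in 32.0% of the 25 genes, against 9.65% of all genes with a listed promoter and 8.49% of those tested.

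Of the 14 genes with a listed promoter and a log2 ratio of -2 or less, 7 had a CHR match. These were Ccnb2, Ccnf, Cdk1, Cdkn3, Cks1b, Skp2 and Cdc25b. Of the 11 genes with a listed promoter above -2, Lin54 alone had a CHR match. Ccnb1, Mybl2, Chek1, Chek2, Cdk2, Cks2 and Ccne1 were at -2 or less without a CHR match in this window. Foxm1, Ccna2, Cdc25c, Ccnd1, Ccne2, Lin9 and Pkmyt1, also at -2 or less, had no listed promoter. Cdc25a, whose level differed little between the libraries, had CCAAT and E2F matches. These matches are letters in a window of sequence, and binding was not measured.

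Shares within a family do not depend on the scaling of the libraries, and they are given with their 95% binomial intervals, which also cover counting error only. Among the counts of CDC25 phosphatases, Cdc25a took 33.9% (interval 33.0 to 34.8) in control and 76.8% (interval 75.5 to 78.1) with DSS. Cdc25c went from 14.9% (interval 14.2 to 15.6) to 1.60% (interval 1.25 to 2.01). The phosphatase transcripts therefore differed in make-up as well as in amount.

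A shift of the same kind was seen for the kinases that oppose them. Wee1 held 45.1% (interval 43.5 to 46.7) of the counts of Wee1 and Pkmyt1 in control and 76.6% (interval 74.5 to 78.6) with DSS. Among D-type cyclins, the share of Ccnd1 went from 18.0% (interval 17.7 to 18.4) to 5.90% (interval 5.52 to 6.31) and that of Ccnd3 from 6.11% (interval 5.89 to 6.33) to 12.7% (interval 12.1 to 13.2). Ccnd2 kept the largest share, at 75.8% and 81.4%.

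Lin54 held 65.1% (interval 63.6 to 66.7) of the counts of Lin9 and Lin54 in control and 86.0% (interval 84.2 to 87.7) with DSS. Cdkn1c held 6.47% (interval 5.76 to 7.24) and 15.5% (interval 14.2 to 16.9) beside Cdkn1b, and Cdkn2d held 35.5% (interval 33.5 to 37.6) and 53.3% (interval 49.2 to 57.3) beside Cdkn2c. For the B-type cyclins, the share of Ccnb1 was 53.9% (interval 53.0 to 54.8) and 53.3% (interval 48.8 to 57.8). For the E-type cyclins, the share of Ccne1 was 53.5% (interval 50.5 to 56.6) and 54.2% (interval 46.6 to 61.6). In these last pairs, the intervals of the libraries overlapped.

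**Figure D4:**
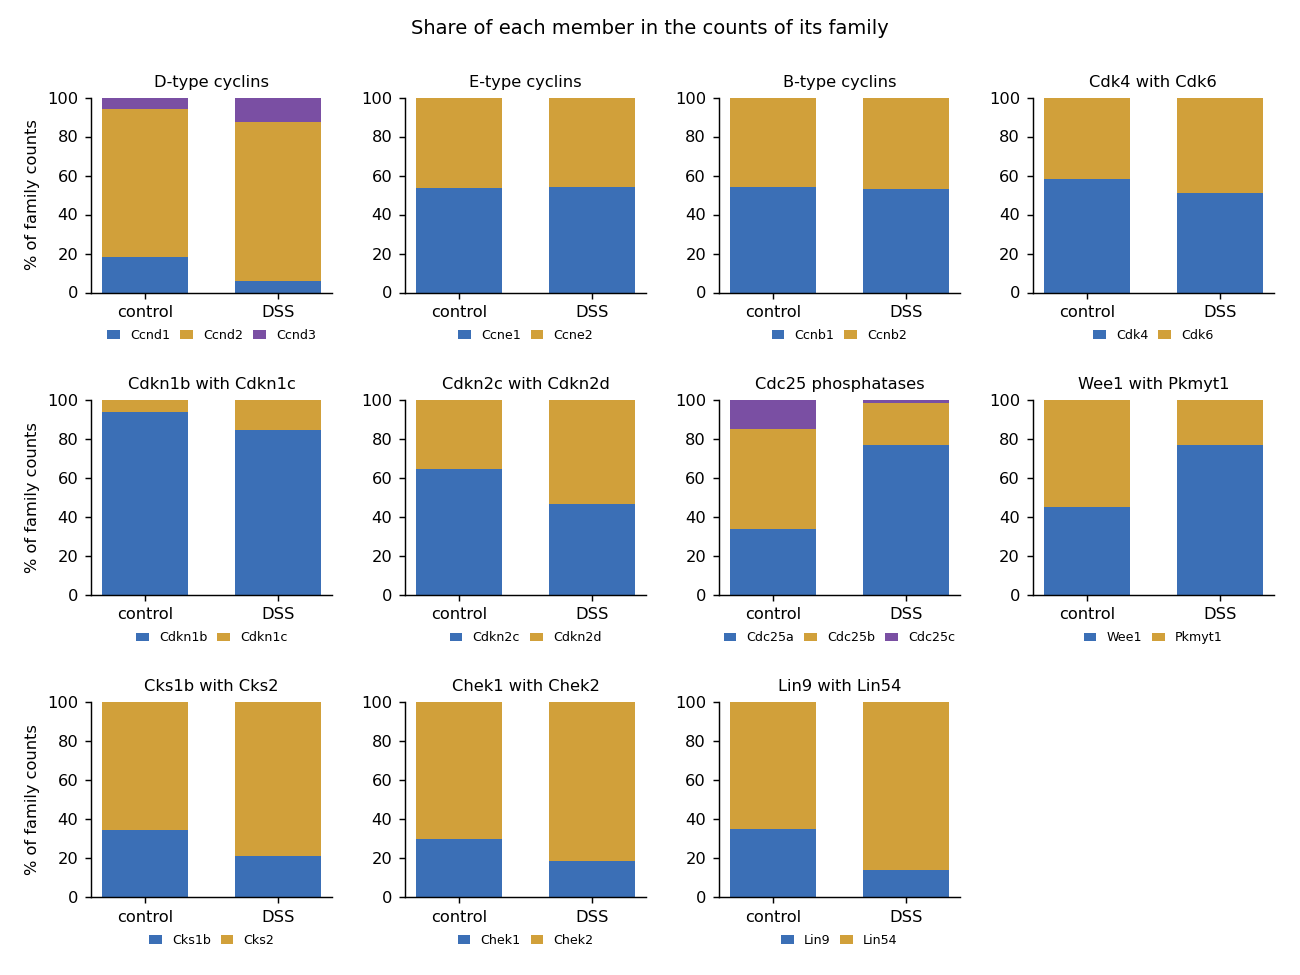
Share of each gene in the counts of its family, in percent, in the control and DSS libraries, for 11 families of 2 or 3 genes. Cdc25a goes from 33.9% to 76.8% and Wee1 from 45.1% to 76.6%, while the B-type and E-type cyclins keep nearly the same division.

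A list of 74 other genes of the pathway gave 71 tested genes with a median log2 ratio of -0.35. Of these, 18 were lower by at least 2-fold and 4 were higher, against 20.2% and 19.3% of all tested genes. The list of kinases and phosphatase control at mitotic entry came nearest to the G2/M genes, with a median of -3.24 over 6 genes. Plk1, the polo kinase of mitosis, was its lowest gene at -3.92 (interval -4.12 to -3.73), and Ensa, an inhibitor of the phosphatase PP2A, its highest at 0.15 (interval 0.09 to 0.21).

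For the APC/C, the ligase that ends mitosis, 7 of 18 genes were lower by at least 2-fold, against 20.2% of all tested genes. Of the 18, 3 were lower by at least 4-fold, against 6.54% of all tested genes. Cdc20, the mitotic activator of the complex, was the lowest at -4.61 (interval -4.80 to -4.42), beside Fzr1 at 0.03, the activator that acts in G1. The other two were the ubiquitin-conjugating enzyme Ube2c at -4.27 and the APC/C inhibitor Fbxo5 at -3.48, named after their values were seen. The 4 between 2-fold and 4-fold, also named after their values were seen, were the ubiquitin-conjugating enzyme Ube2s at -1.45 and the core subunits Cdc23 at -1.42, Anapc5 at -1.25 and Cdc16 at -1.01. The core subunit Anapc2 was the highest at 0.24.

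The checkpoint sensors had a median of -1.39 over 8 genes. Clspn, the adaptor through which ATR activates CHK1, was the lowest at -4.35 (interval -4.67 to -4.04), and Atrip, the partner of ATR, the highest at 0.24 (interval -0.03 to 0.50). Of the MuvB partners, Rbbp4 was at -1.45 and Lin37 at 0.06. The other parts of SCF ligases, with which SKP2 and cyclin F work, all lay within 2-fold, from Rbx1 at -0.29 to Cul1 at 0.19.

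The list of transcriptional cyclins and CDKs also stayed mostly within 2-fold, with a median of -0.11 over 13 genes. Mnat1, the assembly factor of the CDK-activating kinase, was the lowest at -0.75, and Cdk11b, a kinase of RNA splicing, the highest at 1.46. Among 14 cyclins and CDKs outside the core cycle, the median was -0.09. The extremes were Ccna1, cyclin A1, at -3.43 (interval -4.29 to -2.67) with 211 and 15 counts, and Cdk14, a kinase linked to WNT receptors, at 3.83 (interval 3.07 to 4.70) with 15 and 163 counts.

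Cdkn2b, which encodes the INK4 inhibitor p15, was higher in the DSS library, with 768 and 3405 counts and a log2 ratio of 2.54 (interval 2.42 to 2.65). It thus stood opposite to its relatives Cdkn2c and Cdkn2d. Cdkn2a, another CDK inhibitor gene, was not listed. Ccng1, the relative of Ccng2, was at -0.45. Cdkn1a, which encodes p21, was at 271 and 490 CPM, a log2 ratio of 0.86 (interval 0.83 to 0.88). The counts of Cdkn1a, Cdkn1b and Cdkn1c together were 1.01 times those of Ccna2, Ccnb1 and Ccnb2 in control and 34.3 times with DSS, a comparison chosen after the values were seen. Most of that difference lay in the cyclins, with 23485 counts in control and 861 with DSS. The inhibitors had 23758 and 29511 counts.

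**Figure D5:**
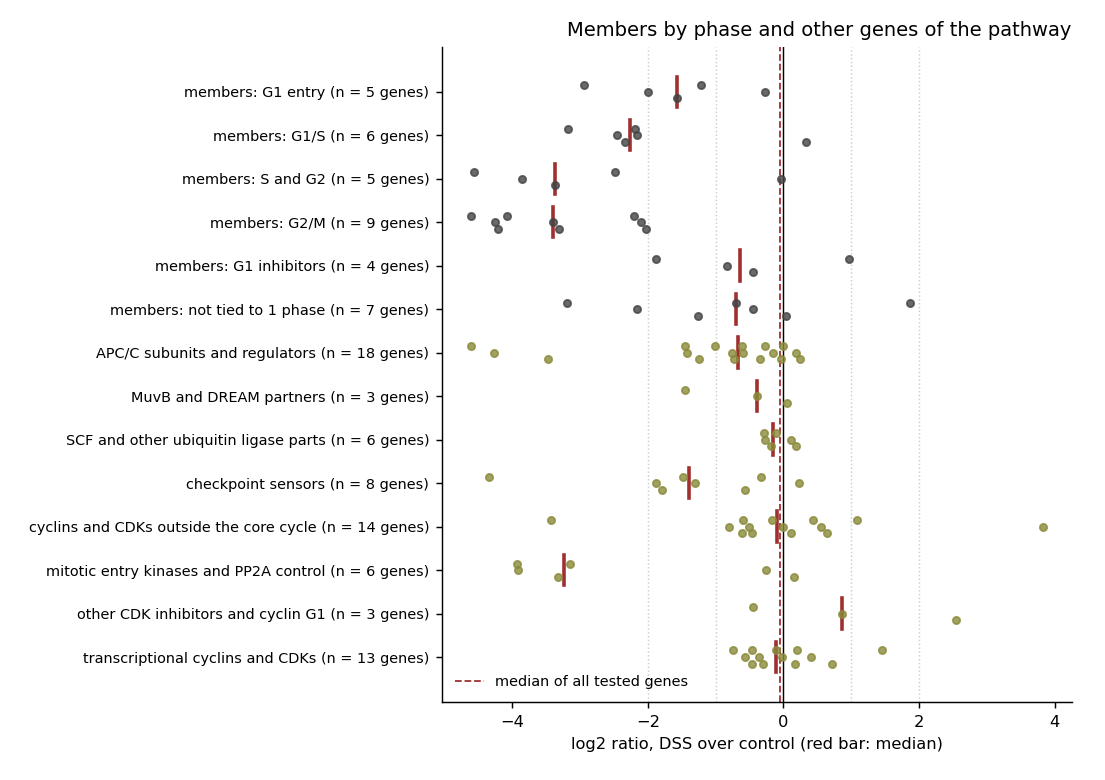
Log2 ratio of each gene, DSS over control, for the 36 genes by phase (grey) and for the 71 tested genes of 8 other pathway lists (olive), with a red bar at each median and a dashed line at the median of all tested genes. The mitotic entry list has a median of -3.24, near the -3.40 of the G2/M genes, and the lists of SCF parts and transcriptional cyclins lie around 0.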

How the data were processed

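1 control and 1 DSS library of bulk RNA were made with a TruSeq Stranded mRNA kit, per the labels. The deposited values are gene-level read counts that the authors had not normalized, and the submitters' processing notes name HISAT2 and StringTie without versions. The genome build and the counting rules are not given in the sources used here. The files of single samples, though named for FPKM, held the same counts for all 19294 genes.

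Counts were scaled with TMM factors (1.09 for control, 0.915 for DSS) in edgeR 4.0.16 under R 4.3.3. Ratios and Clopper-Pearson intervals were computed with Python 3.11.15 and scipy 1.17.1 and tested on simulated data. No listed gene had a count of 0, and the lowest was 1 in both libraries. No p-value was computed, since each group is 1 library. Exon lengths came from GENCODE vM21 by symbol. Exons of 11 of the 36 genes overlap a gene on the other strand, and whether counting used strand is not given in the sources used here. Ratios were recomputed with total counts, with upper quartile factors, with size factors of DESeq2 1.42.0, with the deeper library thinned, with 2 added as a prior count, with other minimums, and with means of lists. All 36 genes are named, and of the other lists each list's extremes among genes reaching 50 counts in one library or both. The genes, lists, phases and motifs were chosen with earlier results of these data known.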

Additional observations from a re-analysis of the deposited data

How the results depend on the processing

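Scaling moves all genes by the same amount. Relative to TMM, the log2 ratios shifted by -0.26 with total counts, by 0.09 with upper quartile factors and by 0.01 with DESeq2 size factors. No gene past 2-fold changed direction under any of the 5 alternatives run on single genes. With total counts, the median log2 ratio was -1.83 for the genes of G1 entry, -0.90 for the G1 inhibitors, -3.65 for G2/M and -0.96 for the genes not tied to 1 phase. With upper quartile factors, the median of G1 entry was -1.48, and 2 genes rather than 1 were higher by at least 2-fold, since Cdkn1c was at 1.05. The mean in place of the median was -2.86 for S and G2 and -0.84 for the genes not tied to 1 phase. Wee1 and Fzr1, near 0, were at -0.29 and -0.22 with total counts and at 0.05 and 0.13 with upper quartile factors, so their direction depends on the scaling. The count of genes lower by at least 2-fold or 4-fold stayed within 1.5 times of 26 and 21 under every alternative run, at 26 to 27 and 20 to 23. No paired analysis was possible because the groups hold 1 library each and the result comes from no test, and for the same reason no replicate could be left out. Depth limited these genes little, since the lowest count was 284 for control and 70 for DSS.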

Other observations

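Other listed cyclin and CDK genes outside the lists above were taken by symbol after the data were seen, and a few are given here. Ccnjl, a cyclin J relative, had 456 control counts and 62 with DSS, a log2 ratio of -2.49 (interval -2.90 to -2.10). Cdkl2 had 224 and 369 counts and a log2 ratio of 1.11 (interval 0.87 to 1.35). Ccndbp1, which encodes a protein that binds D-type cyclins, was at 0.74 (interval 0.64 to 0.85).

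Where exons of the 36 genes overlapped a gene on the other strand, the partner often had another ratio. Pkmyt1 was at -2.03 beside Paqr4 at 0.37, Ccnd3 at -0.27 beside Bysl at -1.43, and Fzr1 at 0.03 beside Mfsd12 at 0.37.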
